A study of Ovis aries with 16 samples.

Results

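The 82 mRNAs are predicted targets of 9 miRNAs of the imprinted DLK1-DIO3 cluster, and their levels in the testis were compared between underfed and well-fed male sheep. They were taken from the study's table of predicted miRNA-mRNA pairs, which holds 269 mRNAs, as those listed for oar-miR-1197-3p, oar-miR-323a-3p, oar-miR-376a-5p, oar-miR-380-3p, oar-miR-381-3p, oar-miR-3958-3p, oar-miR-409-3p, oar-miR-410-3p or oar-miR-411b-3p. Of the 84 mRNAs listed for these miRNAs, SLC29A1 and F2R were left out by the rule, which leaves 82 of the 25197 genes in the files. An mRNA entered the table when it differed between the diets, held a predicted site and fell where the miRNA rose among the same sheep, so the values of these libraries chose the members. Their diet difference is therefore given as a description, with no test.

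A miRNA guides a silencing complex to sites in mRNAs, mostly in the 3′ untranslated region, and lowers their stability or translation. The DLK1-DIO3 cluster is an imprinted region in which the protein-coding genes are active on the paternal chromosome, while the long non-coding RNAs and a large group of miRNAs are active on the maternal one. Each of these miRNAs has many predicted targets, and a mature miRNA selects them mainly through the few bases of its seed.

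In the RefSeq gene order of the sheep assembly ARS-UI_Ramb_v3.0, the genes of all 9 miRNAs lay on chromosome 18 between DLK1 and DIO3, among 55 miRNA genes. Among the 9, MIR380, MIR411B, MIR1197 and MIR323A stood nearest to DLK1, MIR3958, MIR376A and MIR381 followed, and MIR409 and MIR410 stood nearest to DIO3. oar-miR-409-3p had the most members (26) and oar-miR-381-3p the fewest (6). Most members (52) were listed for a single miRNA of the 9, 21 for 2, 6 for 3 and 3 for 4.

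The libraries came from the testes of 16 adult Merino males, 8 fed a high diet to gain 10% of body mass over 65 days (well-fed) and 8 fed a low diet to lose 10% (underfed). RNA was taken from mixed pieces of the right testis of each animal, and poly(A) RNA was sequenced with 1 library per sheep. A 3rd group kept at maintenance was not sequenced, so changes due to gain and to loss cannot be told apart.

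The deposited values are CPM, the reads on a gene as a scaled share of all reads on genes in that library. The libraries of well-fed sheep held 9552149 to 18230076 reads on genes and those of underfed sheep 7646547 to 14690953, so the well-fed libraries were mostly the deeper. For comparisons across genes, CPM was divided by a TMM factor, which corrects each library for its composition, and log2 values were taken after adding 1 CPM. Fold changes are underfed over well-fed on this log2 scale, where the added 1 CPM shrinks the change of lowly expressed genes. A filter of more than 5 CPM in 8 or more libraries left 11148 genes for limma, all 82 members among them. In whole tissue, fewer cells of a type and less RNA per cell cannot be told apart.

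All 82 members had a positive log2 fold change, with a median of 0.91 and a range from 0.54 to 1.48, against a median of 0.01 over all genes tested. Mean CPM was between 1.65 and 3.89 times as high in underfed as in well-fed sheep. By the criteria of adjusted p below 0.1 and a ratio of mean CPM above 1.5, 78 of 82 members were expressed more in underfed sheep and 0 less, where the same criteria called 10.8% of all genes tested higher and 5.42% lower. This contrast chose the members, and nothing is read from the count. The other 187 mRNAs of the table, SLC29A1 and F2R among them, moved both ways, with 95 higher and 42 lower in underfed sheep. Median log2 fold changes were 0.94, 0.91, 0.85 and 0.87 for members listed for 1, 2, 3 and 4 of the miRNAs.

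**Figure D1:**
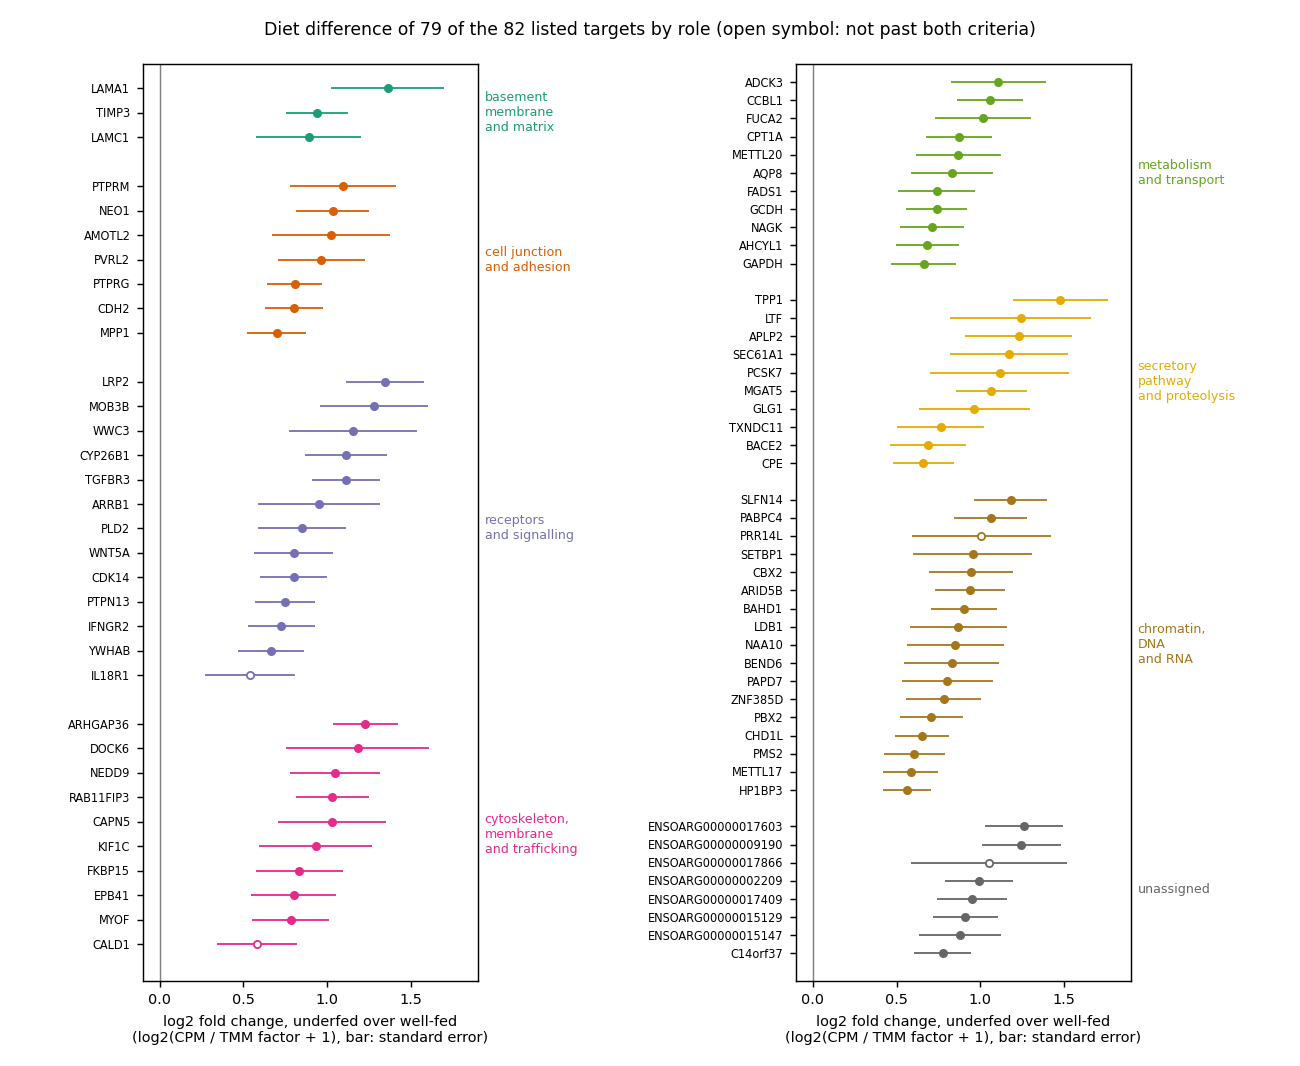
Log2 fold change (underfed over well-fed, horizontal axis) with its standard error for 79 of the 82 members, grouped by role, from 16 sheep. Every point lies right of 0, between 0.54 and 1.48, and open symbols mark the 4 members that missed the adjusted p of 0.1.

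In CPM, every underfed sheep lay above every well-fed sheep for 14 of 82 members, against 0.762% of all genes tested, a count the listing also shaped. Among these 14 were PTPRG, CDH2, LRP2, ARHGAP36, MGAT5, SLFN14, PBX2, METTL17, C14orf37 and the unnamed genes ENSOARG00000002209, ENSOARG00000015129 and ENSOARG00000017603. For the other 68 members the diets overlapped in at least 1 sheep. Overlap is given in CPM throughout, before division by the TMM factors on which the fold changes rest. After division, the diets overlapped for CDH2, METTL17, PBX2 and ENSOARG00000002209 as well. For CDH2, underfed replicate 5 (70.8 CPM, factor 1.07) then fell below well-fed replicate 3 (70.4 CPM, factor 1.01). The 4 members past the ratio but not past the adjusted p were CALD1, IL18R1, PRR14L and ENSOARG00000017866, of which the last 2 are named because of this small count, after their values were seen. ARRB1 was just inside that threshold with a log2 fold change of 0.95 ± 0.37 (SE) and CALD1 just outside with 0.58 ± 0.24, and METTL17 had the smallest ratio of means, 1.65.

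Genes of the basement membrane and matrix, 3 of 3 past both criteria, included both laminin chains of the list. The diet contrast that chose the members also sets this count and those of the role groups below. The same criteria called 10.8% of all genes tested higher, and nothing is read from the counts by role. LAMA1, the alpha-1 chain of laminin, ranged from 29.0 to 203 CPM (median 87.5) in well-fed sheep and from 135 to 542 CPM (median 237) in underfed sheep. Its log2 fold change was 1.36 ± 0.34 (SE, n = 8 per diet), and 6 underfed sheep stood above all well-fed sheep, whereas underfed replicates 1 and 3 lay within the well-fed range. LAMC1, the gamma-1 chain that laminin trimers share, ranged from 16.6 to 85.0 CPM (median 37.5) in well-fed and from 46.4 to 139 CPM (median 82.7) in underfed sheep, with a log2 fold change of 0.89 ± 0.31. The diets overlapped more for this gene than for LAMA1, with 4 underfed sheep above every well-fed one. TIMP3, a matrix-bound inhibitor of metalloproteinases, ranged from 45.8 to 116 CPM (median 80.1) and from 111 to 276 CPM (median 163), a log2 fold change of 0.94 ± 0.19. Underfed replicate 1 alone lay below the highest well-fed sheep.

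All 8 members with roles in cell junctions and adhesion passed both criteria, with a median log2 fold change of 0.94. CDH2, the N-cadherin of junctions between Sertoli and germ cells, ranged from 35.8 to 70.4 CPM (median 51.1) in well-fed sheep and from 70.8 to 147 CPM (median 100.1) in underfed sheep. Its log2 fold change was 0.80 ± 0.17, with no overlap in CPM but overlap after division by TMM factors. PVRL2, the adhesion molecule nectin-2, went from a median of 28.8 CPM (9.27 to 51.4) to 60.5 CPM (26.3 to 85.8), with underfed replicate 1 at the bottom of its diet. The same sheep was lowest for AMOTL2, an angiomotin-family scaffold, whose median was 2.61 CPM in well-fed (0.768 to 7.38) and 8.396 CPM in underfed sheep (1.93 to 16.04). NEO1, a netrin and repulsive guidance receptor, ranged from 28.5 to 79.8 CPM (median 52.4) and from 77.4 to 190 CPM, with 7 underfed sheep above every well-fed one. The smallest change of the group was in MPP1, a membrane scaffold of the guanylate kinase family, at 0.70 ± 0.17.

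Receptors and signalling genes, 13 of 14 past both criteria, held retinoid and growth factor components. CYP26B1, the enzyme that breaks down retinoic acid in the testis, ranged from 7.52 to 32.7 CPM (median 15.7) in well-fed sheep and from 26.2 to 78.2 CPM (median 39.1) in underfed sheep, a log2 fold change of 1.11 ± 0.24. Underfed replicate 4 held the highest value, apart from the other underfed sheep. LRP2, the endocytic receptor megalin, was narrow in well-fed sheep (21.3 to 42.4 CPM, median 28.8) and wide in underfed sheep (45.8 to 162 CPM, median 85.8), with a log2 fold change of 1.35 ± 0.23 and no overlap. TGFBR3, the inhibin co-receptor betaglycan, rose from a median of 14.7 CPM (8.12 to 20.2) to 34.7 CPM (17.6 to 57.0), a log2 fold change of 1.11 ± 0.20.

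WNT5A, a non-canonical Wnt ligand, stood at 2.36 to 6.94 CPM (median 3.56) in well-fed and 4.71 to 13.6 CPM (median 8.77) in underfed sheep. MOB3B, a MOB kinase activator listed for 3 of the miRNAs, stood at 2.25 to 13.1 CPM (median 5.02) and 7.55 to 38.6 CPM (median 21.1). Their log2 fold changes were 0.80 ± 0.24 and 1.28 ± 0.32, with 6 underfed sheep above every well-fed one in each case. IL18R1, a subunit of the interleukin-18 receptor, had the smallest change of all members, 0.54 ± 0.27, from 7.13 to 14.7 CPM (median 10.1) in well-fed and from 8.29 to 45.9 CPM (median 13.4) in underfed sheep. Only 3 underfed sheep were above every well-fed one for IL18R1.

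**Figure D2:**
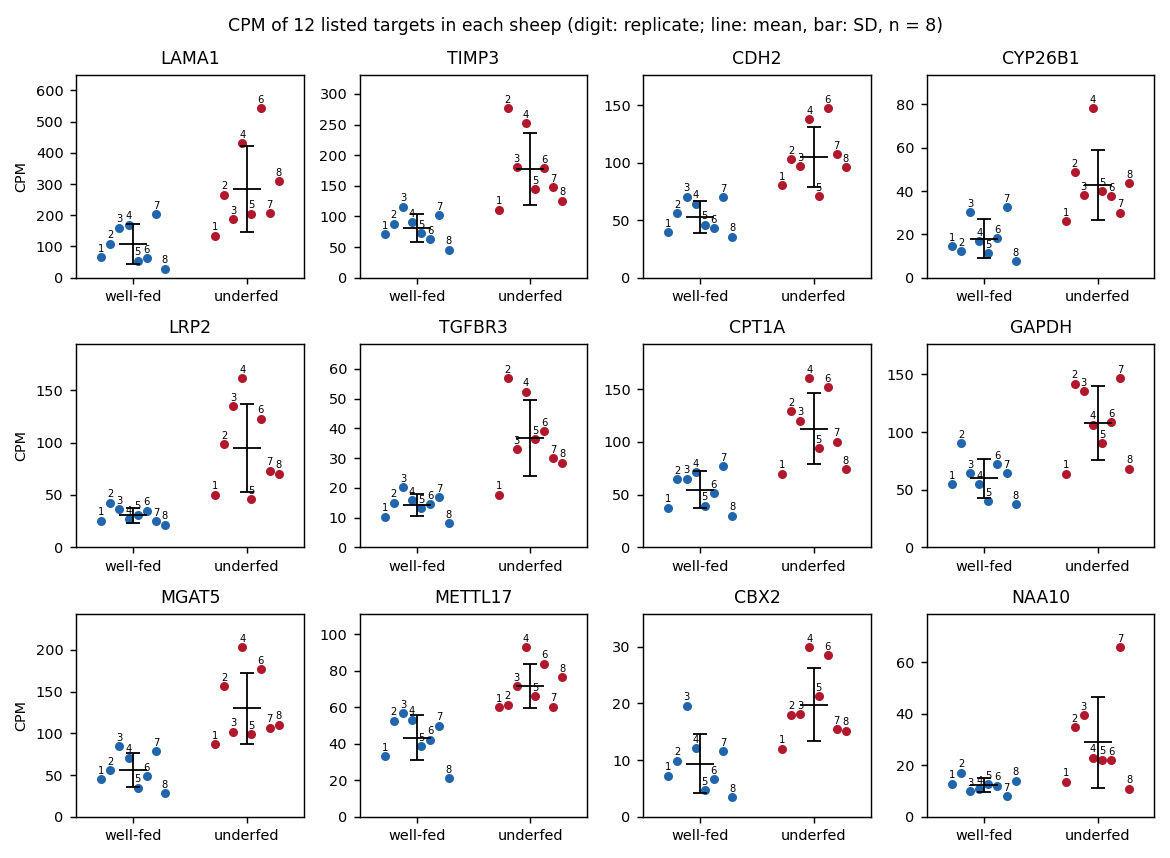
CPM (vertical axis, linear from 0) of 12 members in each of the 8 well-fed and 8 underfed sheep, with the replicate number beside each point and the mean and SD as a line and a bar. CDH2, LRP2, MGAT5 and METTL17 do not overlap between the diets, and underfed replicate 1 is often among the lowest of its diet.

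All 12 members of metabolism and transport passed both criteria, at a median log2 fold change of 0.83. CPT1A, which controls entry of fatty acids into mitochondria and was listed for 3 of the miRNAs, ranged from 29.8 to 77.0 CPM (median 58.1) in well-fed sheep and from 69.9 to 161 CPM (median 110.2) in underfed sheep, a log2 fold change of 0.87 ± 0.20. CCBL1, a kynurenine aminotransferase now named KYAT1, was listed for 4 miRNAs and rose from a median of 9.14 CPM (6.42 to 12.5) to 26.3 CPM (11.2 to 33.5). For CCBL1 underfed replicate 1 alone lay within the well-fed range. METTL20, a mitochondrial lysine methyltransferase also listed for 4 miRNAs, had medians of 5.74 CPM (2.85 to 8.73) and 10.9 CPM (7.26 to 32.2). AQP8, a water channel, had medians of 30.7 CPM (9.16 to 36.1) and 61.2 CPM (20.6 to 74.4), with well-fed replicate 8 and underfed replicate 1 apart from the rest of their diets.

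GAPDH, the glycolytic enzyme that served the study as reference gene in RT-qPCR, was itself a member, listed for oar-miR-376a-5p. It ranged from 37.4 to 90.4 CPM (median 59.4) in well-fed sheep and from 63.6 to 147 CPM (median 107) in underfed sheep, a log2 fold change of 0.66 ± 0.19 and a ratio of means of 1.80. In 5 underfed sheep it was above every well-fed sheep, and underfed replicates 1, 5 and 8 overlapped with the well-fed range.

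The 10 members of the secretory pathway and proteolysis, all past both criteria, had the highest median log2 fold change of the role groups, 1.09. TPP1, a lysosomal peptidase, had the largest change of all members, 1.48 ± 0.28, from 1.26 to 5.20 CPM (median 2.20) in well-fed to 4.48 to 21.1 CPM (median 8.92) in underfed sheep. Every underfed sheep but replicate 1 was above all well-fed sheep, and the lowest value of each diet rested on 15 and 51 reads. MGAT5, which branches N-glycans and was listed for 3 miRNAs, did not overlap, with 27.9 to 84.8 CPM (median 52.2) and 86.7 to 203 CPM (median 108). BACE2, an aspartyl protease, also listed for 3 miRNAs, left 1 underfed sheep above every well-fed one, with well-fed replicate 3 at 7.33 CPM, where the other well-fed sheep ranged from 1.62 to 3.51 CPM and the underfed sheep from 2.90 to 8.83. APLP2, a membrane protein shed by proteolysis, ranged from 14.5 to 75.8 CPM (median 29.1) and from 32.7 to 175 CPM (median 93.4), with underfed replicate 1 as the only overlap.

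Among the 17 members of chromatin, DNA and RNA, 16 passed both criteria, with a median log2 fold change of 0.85. HP1BP3, a heterochromatin protein that binds HP1, ranged from 38.4 to 69.9 CPM (median 44.9) in well-fed sheep and from 60.7 to 107 CPM (median 78.7) in underfed sheep, a log2 fold change of 0.56 ± 0.14. METTL17, a mitochondrial methyltransferase-like protein listed for 4 miRNAs, ranged from 21.0 to 56.6 CPM (median 46.1) and from 60.2 to 92.8 CPM (median 69.0), a log2 fold change of 0.58 ± 0.16. There was no overlap in CPM, but there was after division by TMM factors. So a small fold change here went with a narrow spread. CBX2, a Polycomb protein needed for testis formation, had medians of 8.56 CPM (3.46 to 19.6) and 18.0 CPM (12.02 to 29.8), a log2 fold change of 0.95 ± 0.25. PAPD7, a poly(A) polymerase now named TENT4A and listed for 3 miRNAs, had medians of 9.88 CPM (5.65 to 18.9) and 20.2 CPM (10.7 to 38.3). In both genes underfed replicate 4 was highest and underfed replicate 1 lowest.

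NAA10, the catalytic subunit of an N-terminal acetyltransferase, and BEND6, a BEN-domain repressor of Notch targets, followed other sheep. NAA10 was narrow in well-fed sheep (8.08 to 17.1 CPM, median 12.3) and ranged from 10.9 to 65.7 CPM (median 22.6) in underfed sheep, with replicate 7 highest and replicate 8 lowest. BEND6, listed for 3 miRNAs, had medians of 8.04 CPM (4.50 to 13.4) and 18.0 CPM (6.44 to 27.4), and underfed replicate 8 was again lowest.

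Of the 10 members of cytoskeleton, membrane and trafficking, 9 passed both criteria. CALD1, the actin-binding caldesmon of smooth muscle and myoid cells, was the exception, with 34.7 to 85.6 CPM (median 58.4) in well-fed and 51.9 to 177 CPM (median 86.5) in underfed sheep. DOCK6, an exchange factor for RAC1 and CDC42, had a wide spread, from 4.06 to 47.7 CPM (median 15.3) in well-fed and from 18.0 to 87.9 CPM (median 38.3) in underfed sheep, and its log2 fold change of 1.18 ± 0.43 passed with 3 underfed sheep above every well-fed one. FKBP15, which links endosomes with actin, had medians of 41.2 CPM (19.8 to 70.6) and 81.1 CPM (38.1 to 134). The 8 members without a role in these lists, 7 of them without a symbol, had a median log2 fold change of 0.97, and ENSOARG00000009190 moved most among those named by rule, from a median of 91.5 CPM (42.0 to 131) to 255 CPM (111 to 372).

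The members moved together from sheep to sheep. After each member was centred on its mean over the 16 sheep, the median over members ranged from -0.90 to 0.01 in well-fed sheep and from -0.20 to 1.04 in underfed sheep on the log2 scale. Well-fed replicates 3, 4 and 7 stood at -0.00, -0.06 and 0.01, above underfed replicate 1 at -0.20, so the diets overlapped in the median of the list. On the same log2 scale, after division by TMM factors, underfed replicate 1 was the lowest underfed sheep for 58 of 82 members. Underfed replicate 4 was the highest for 42. In the other diet, replicate 8 was lowest for 33 members and replicate 1 for 26, and replicate 7 was highest for 35. With the total reads of a library, the median r over members was -0.37 in well-fed sheep (69 of 82 negative) and -0.19 in underfed sheep (63 of 82 negative), against -0.04 and 0.00 over all genes tested. The part of depth in the results was not tested.

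**Figure D3:**
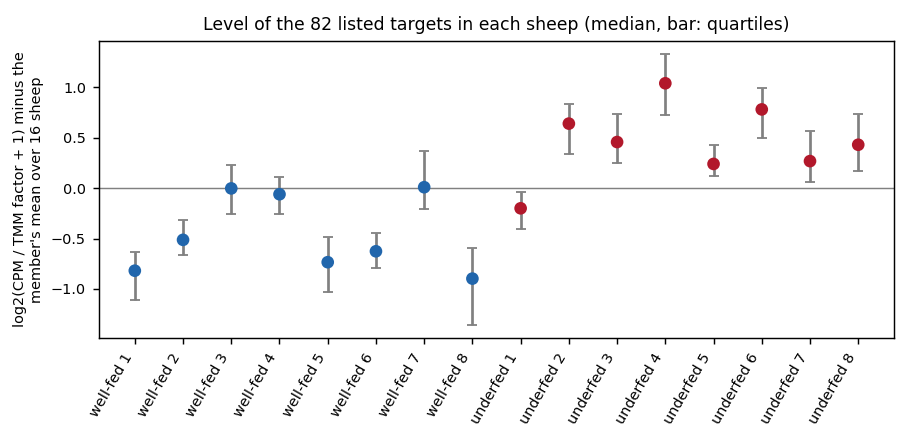
Level of the 82 members in each of the 16 sheep as log2(CPM / TMM factor + 1) minus the member's mean over all sheep (vertical axis), with the median as a point and the quartiles as a bar. Underfed replicate 1 lies at -0.20, below well-fed replicates 3, 4 and 7, and underfed replicate 4 is highest at 1.04.

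With the diet means removed, the median Pearson r over the 3321 pairs of members was 0.59, and 7.80% of pairs were negative. This takes out the difference between the diet means but not the listing by correlation with a miRNA that the study describes for the same sheep. The mutual r may thus still draw on values that chose the members. Within well-fed sheep alone the median was 0.63 and within underfed sheep alone 0.59. The points of each r share library, depth and cell makeup, so these values are descriptions. Over all pairs of genes tested the median was -0.02. The other 1126 genes called higher in underfed sheep had a median of 0.58 among themselves, next to 0.59 for the members, and the other 95 table mRNAs called higher had 0.68. Pairs of members listed for the same miRNA (887) had a median of 0.60, and pairs that share none of the 9 (2434) had 0.59. By miRNA, the median went from 0.43 for oar-miR-380-3p to 0.69 for oar-miR-323a-3p.

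LAMA1 and PTPRM, a receptor phosphatase of cell contacts, formed the closest pair (r = 0.98, a pair chosen after the values were seen), and no miRNA of the 9 was listed for both. The members closest to the rest, by their median r with the other 81, were AMOTL2 (0.80), NEO1 (0.78) and FKBP15 (0.78). At the other end, NAA10 (-0.16), ENSOARG00000002209 (-0.15), ENSOARG00000015129 (-0.11) and BEND6 (-0.05) were the only 4 members with a negative median, and they rose with underfeeding while running against most other members from sheep to sheep. The lowest pair was NAA10 and ENSOARG00000017866, at -0.59, both listed for oar-miR-409-3p. The median r of GAPDH was 0.24. By role, the median r among members was highest in the secretory pathway and proteolysis group, at 0.81, and lowest in the group without a role, at 0.44.

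**Figure D4:**
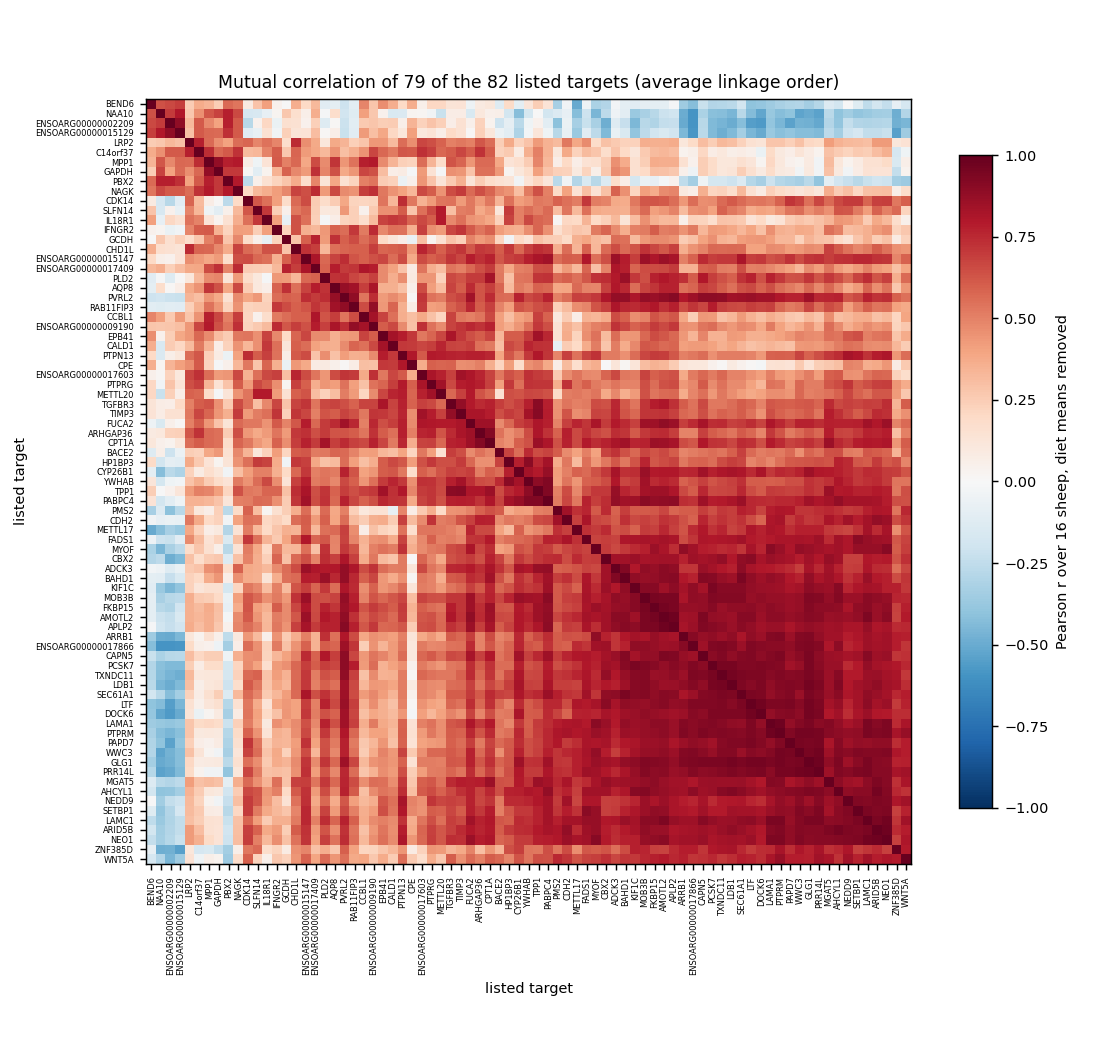
Pearson r between 79 of the 82 members (both axes, in the order of average linkage) over 16 sheep after the diet means were removed, from -1 in blue to 1 in red. Most pairs are positive, and NAA10, BEND6, ENSOARG00000002209 and ENSOARG00000015129 form a block at the upper left that runs against the others.

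Whether the members followed the state of the testis beyond the diet was tested against 6 traits of the same sheep, measured by the study: testis weight, number of sperm per testis, diameter of the seminiferous tubules, volume of the seminiferous epithelium, change in scrotal circumference and apoptotic germ cells per tubule. Over all 16 sheep, r with testis weight was negative for 82 of 82 members, with a median of -0.65. The diets differ in testis weight, so this pooled value repeats the diet contrast and is a description.

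With diet as a term in limma, 0 of 82 members passed an adjusted p of 0.1 for any of the 6 traits, where this threshold called 0.00897% of all genes tested for testis weight (1 gene) and 0% for each of the others. At an unadjusted p below 0.05, testis weight reached 15 members, all with lower levels in heavier testes (background 2.4%), apoptotic germ cells 6 (1.01%), epithelium volume 2 (0.78%), tubule diameter 1 (0.26%), scrotal change 1 (0.206%) and sperm number 0 (1.47%). The coefficient for testis weight was negative for 78 of 82 members, against 46.6% of all genes tested, with a median of -0.20 log2 units per SD of testis weight. It was negative for 76 members with epithelium volume (46.7% of all genes), 51 with sperm number (48.8%), 46 with tubule diameter (50.6%) and 23 with apoptotic germ cells (51.0%). For the change in scrotal circumference the sign was opposite to that for testis weight, with 67 of 82 positive and 15 negative, where 39.0% of all genes were negative. Members are not independent, since they move together between sheep, so 1 sheep can shift many of them. Without underfed replicate 1 the count at an unadjusted p below 0.05 for testis weight was 6, without underfed replicate 2 or well-fed replicate 7 it was 8, without underfed replicate 3 it was 9, and without underfed replicate 8 it was 26. Without TMM factors it was 27.

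The unnamed gene ENSOARG00000009190 had the steepest coefficient, -0.51 ± 0.12 log2 units per SD of testis weight (SE, limma, adjusted p = 1.00). Among underfed sheep it had r = -0.85 and rho = -0.88 with testis weight (exact permutation p = 0.0083 and 0.0072, 8 sheep, adjusted p = 1.00 over all genes tested), and r = -0.82 when the 2 sheep of most extreme weight were left out. MPP1 followed among underfed sheep, with r = -0.82 and rho = -0.86 (exact permutation p = 0.013 and 0.011, adjusted p = 1.00), and r = -0.71 without those 2 sheep. At the other end of the underfed range were METTL17 (r = 0.38, rho = 0.26, exact permutation p = 0.36 and 0.54) and DOCK6 (r = 0.38, rho = 0.29, exact permutation p = 0.38 and 0.50). Neither end passed the adjustment. In well-fed sheep r was -0.63 for ENSOARG00000009190, -0.14 for MPP1, -0.36 for METTL17 and -0.65 for DOCK6.

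In well-fed sheep, CYP26B1 had the lowest r with testis weight, -0.87, with rho = -0.95 (exact permutation p = 0.0063 and 0.0011, adjusted p = 0.32 for r), and -0.82 when the 2 sheep of most extreme weight were left out. Its r with apoptotic germ cells was -0.83, with sperm number -0.85 and with epithelium volume -0.84 in the same 8 sheep, traits that were measured in the same testes. APLP2 came next for testis weight at -0.73 (rho = -0.74, exact permutation p = 0.046 for each, adjusted p = 0.32) and was -0.57 without the 2 far sheep. NAA10 went the other way, with r = 0.92 and rho = 0.88 (exact permutation p = 0.0021 and 0.0072, adjusted p = 0.32), and 0.78 without the 2 far sheep. ENSOARG00000015129 had the next highest r, 0.50 (rho = 0.45, exact permutation p = 0.21 and 0.27).

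Within diets, most members had a negative r with testis weight. It was negative for 74 of 82 members in well-fed sheep (median -0.47, all genes 49.4% negative) and for 54 of 82 in underfed sheep (median -0.27, all genes 43.6% negative). With the 2 sheep of most extreme weight left out, the medians were -0.43 and 0.08, so the negative lean of the underfed sheep rested on 2 sheep. At an exact permutation p below 0.05 there were 5 members in well-fed sheep, or 6.10% against 13.8% of all genes tested, and 8 in underfed sheep, or 9.76% against 3.83%. None passed the adjusted p of 0.1 in either diet.

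For apoptotic germ cells per tubule the medians had opposite signs in the 2 diets. There r was negative for 70 of 82 members in well-fed sheep, with a median of -0.49, and for 14 of 82 in underfed sheep, with a median of 0.28, where 49.6% and 50.7% of all genes tested were negative. The difference itself was tested with a product of diet and trait, chosen after these signs were seen. At adjusted p below 0.1 no member and no gene was called (limma, smallest adjusted p = 0.30 among members, for CYP26B1), and at an unadjusted p below 0.05 there were 18 of 82 members (22.0%) against 16.2% of all genes tested. With the 2 sheep of most extreme trait value left out, the median r was -0.64 in well-fed and 0.05 in underfed sheep. The same product for testis weight called 0 members, with 7 at an unadjusted p below 0.05 (8.54% against 21.5% of all genes tested) and the smallest adjusted p, 0.20, for NAA10.

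For sperm number, r was negative for 70 of 82 members in well-fed sheep, with a median of -0.56, and for 33 of 82 in underfed sheep, with a median of 0.07, against 50.6% and 50.3% of all genes tested, and the difference between the diets was not tested. With the 2 sheep of most extreme sperm number left out, the medians were -0.62 and -0.28, with 75 and 73 of 82 members negative, so the sign in underfed sheep turned. In well-fed sheep 11 members had an exact permutation p below 0.05, against 8.07% of all genes tested, and in underfed sheep 0, against 1.17%. Epithelium volume had medians of -0.43 in well-fed and -0.11 in underfed sheep, and -0.51 and -0.18 without the 2 far sheep of each diet. For tubule diameter the medians were -0.05 and -0.02, and without the 2 far sheep -0.11 and -0.49, with 73 of 82 members negative in underfed sheep in place of 42. The change in scrotal circumference had medians of 0.31 and -0.08, which became -0.11 and -0.24 without the 2 far sheep.

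**Figure D5:**
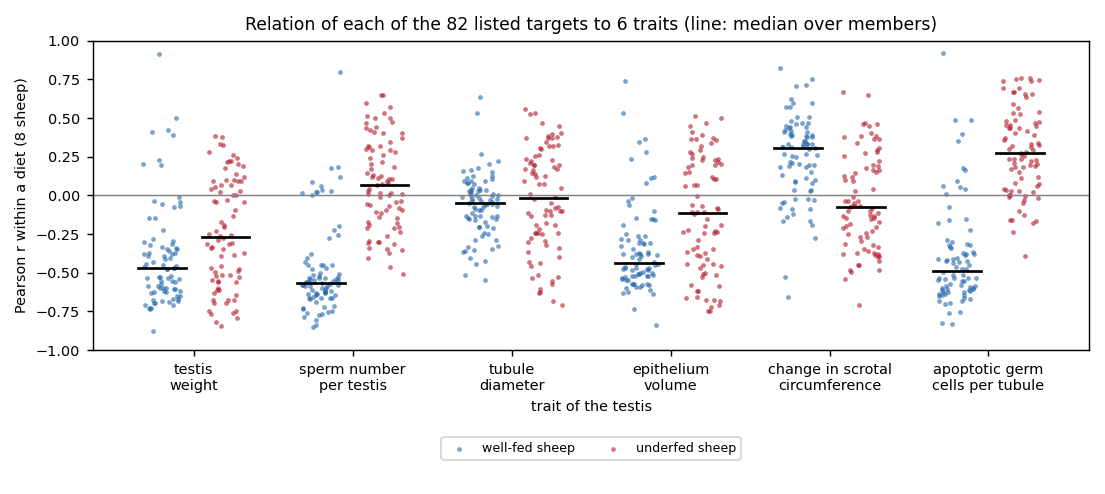
Pearson r of each of the 82 members with 6 traits of the testis (horizontal axis) within the 8 well-fed sheep and within the 8 underfed sheep, with the median over members as a line. For apoptotic germ cells the medians are -0.49 in well-fed and 0.28 in underfed sheep, and for testis weight -0.47 and -0.27.

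Markers of the cell types of the testis differed between the diets as well. Spermatocyte genes were present in every library, SYCP2 at 103 CPM or more. Of 47 markers 15 had an identifier, mostly through lists of genes that the study called different, so their direction is no independent evidence. The 5 Sertoli cell markers with an identifier, WT1, GATA4, CLDN11, FSHR and INHA, were expressed more in underfed sheep, by ratios of mean CPM from 1.87 (FSHR) to 3.25 (GATA4). The peritubular myoid markers MYH11 (ratio 2.45) and DES (2.18) and the leukocyte marker PTPRC (2.06) were higher too. The Leydig cell gene STAR (0.393) and the spermatocyte genes SYCP1, SYCP2, SYCP3 and SPO11 (0.494 to 0.583) were lower, as was CATSPERB of spermatids (0.296). SPATA4 (0.711) did not pass the criteria. With the diet means removed, the median r with the 82 members was 0.72 for WT1, 0.73 for GATA4, 0.75 for MYH11, 0.44 for INHA and 0.48 for each of DES and PTPRC, but 0.18 for FSHR and -0.26 for CLDN11. It was -0.17 for SYCP1, -0.26 for SYCP2, -0.44 for SPO11 and -0.56 for SYCP3, -0.53 for CATSPERB and -0.65 for SPATA4, and -0.25 for STAR. The part of cell makeup in the levels of the members was not tested.

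Of the genes around the cluster itself, 0 of 8 (among them DLK1, RTL1 and DIO3) could be matched to an identifier, and of 12 genes of miRNA processing and silencing only TNRC6A could. TNRC6A, the Argonaute partner that recruits the deadenylation machinery, ranged from 16.1 to 219 CPM over the 16 sheep, with means of 53.0 ± 36.5 CPM in well-fed and 119 ± 59.0 CPM in underfed sheep (SD, n = 8). It passed both criteria, but its symbol too came from the study's lists of genes that differed, so this is no independent evidence. Its median r with the members within diets was 0.76, positive for 77 of 82. The other genes called higher in underfed sheep had a median of 0.58 among themselves, which is taken over pairs and is another measure. By the measure used for TNRC6A, the cell type markers called higher ranged from -0.26 (CLDN11) to 0.75 (MYH11). Members themselves reached 0.80 (AMOTL2). Within diets TNRC6A was thus high in the sheep where most targets were high, which was not particular to it.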

How the data were processed

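Total RNA of the testis was sequenced as poly(A) libraries with a TruSeq mRNA kit. Per the methods and the labels, the authors split reads by index with CASAVA 1.8, aligned pairs to OAR 3.1 with TopHat2 2.0.10, used htseq-count with the Ensembl 75.30 annotation to count reads per gene, and deposited CPM for 25197 genes in each of 16 libraries, without a gene filter. The strand setting and the treatment of reads that fit several genes are not given in the sources used here, so genes with near-identical copies or overlapping neighbours are uncertain. Every CPM was a whole multiple of 1 read within 0.01, and reads recovered in this way (100% whole) gave the totals and the count tests.

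The members and the lists of roles and markers were chosen with earlier results of these data known. Symbols came from the study's tables, which name 1763 of 25197 identifiers. Columns of the authors' own fold changes and p-values in those tables were not used. Trait values came from the study's table of phenotypes, matched by sheep name, and are not printed. Results for 1 marker gene and 3 members are not reported here by name, though the members stay in counts and medians. miRNA sequences and miRNA levels were not analysed here. RefSeq supplied gene order only.

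CPM was divided by TMM factors (edgeR 4.0.16, R 4.3.3) from genes past the filter, 1 CPM was added, and log2 values were fitted with limma 3.58.1 (trend on) with Benjamini-Hochberg adjustment over all 11148 genes with more than 5 CPM in 8 or more libraries. Members counted as called had adjusted p below 0.1 and mean CPM (arithmetic) that differed by more than 1.5 times, the thresholds of the study. Trait coefficients came from diet + trait, with each trait in units of its SD. Correlations within a diet used exact permutation tests over 40320 orders, two-sided, adjusted over all genes tested for each trait and diet (12 families), and their smallest possible p is 4.96e-05. Each sheep is 1 library, so p-values measure the spread between sheep. No libraries of one diet agreed within sampling noise (chi-square per gene at least 22.1). The limma fits and the permutation test were tested on simulated data.

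Members were named with values when listed for 3 or more miRNAs, when known for a role in testis, junctions, matrix, hormone or retinoid signalling or as reference gene, when among the 3 largest or 3 smallest fold changes or next to a threshold, when among the 2 highest or 2 lowest r with testis weight in a diet, or when among the 3 highest or lowest median r with other members (39 members). Alternatives covered TMM factors, pseudocount, filter, edgeR quasi-likelihood and DESeq2 1.42.0 on recovered reads, thresholds, the replicate block, testis weight as covariate, Spearman rho and leaving out each sheep. The product with apoptotic cells and the search in CPM for sheep far from the rest were added after the values were seen. Values were joined with Python 3.11.15, pandas 2.3.3, numpy 2.4.6 and scipy 1.17.1, and drawn with matplotlib 3.10.9.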

Additional observations from a re-analysis of the deposited data

Results flagged for a closer look

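Each named member was examined in each diet for a sheep far from the other 7, by the gap to its nearest neighbour divided by the range of the diet, both on the scale of log2(CPM / TMM factor + 1). Of 78 such groups 6 exceeded Dixon's critical value at the 5% level for 8 sheep, and chance alone would do so in about 1 of 20 groups. With the ratio taken in CPM, an alternative chosen after seeing the data, 4 groups exceeded it, among them CYP26B1 and METTL20 in underfed sheep, and BACE2 in well-fed sheep was the only group that did so on both scales. The ratios that follow are on the log2 scale, with CPM in parentheses. In underfed sheep, replicate 1 was the low one for 4 members. Its gap was 0.545 of the range for AMOTL2 (1.93 CPM against 6.24 to 16.04 in the others), 0.539 for APLP2 (32.7 CPM against 76.3 to 175), 0.662 for AQP8 (20.6 CPM against 44.5 to 74.4) and 0.596 for PVRL2 (26.3 CPM against 50 to 85.8). AQP8 had a low sheep in the other diet too, well-fed replicate 8, with a gap of 0.603 (9.16 CPM against 20.3 to 36.1). BACE2 had a high well-fed sheep, replicate 3, with a gap of 0.577 (7.33 CPM against 1.62 to 3.51). Without underfed replicate 1, 81 of 82 members passed both criteria and the median log2 fold change was 0.99. The members share their sheep, so these gaps are not independent of each other.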

How the results depend on the processing

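All 82 members kept a positive log2 fold change under every alternative run. The same libraries chose the members, so these refits do not test their direction. The count of members past both criteria was 78, and it ranged from 57 to 81 under the other scalings, tests, filter and thresholds: 80 without TMM factors, 78 with a pseudocount of 0.1 CPM, 78 with adjusted p alone, 68 without the filter, 71 with edgeR's quasi-likelihood test, 81 with DESeq2 and 57 at an adjusted p below 0.05. Leaving out each sheep gave 52 (without underfed replicate 6) to 82 (without underfed replicate 7), and 52 members passed in all 16 of these fits. With testis weight as a covariate 0 members passed and the median log2 fold change fell from 0.91 to 0.64. Testis weight differs between the diets, and the cause was not tested. For the alternative fits, the replicate block included, the share of all genes tested that passed was not counted. Their counts therefore cannot be read as particular to the members. The median log2 fold change was 0.83 to 0.99 over sheep left out and 1.07 without TMM factors. No trait called a member in any fit.

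The replicate numbers do not pair the sheep: same-numbered deviations had a mean correlation of -0.15, above 0.1 in 2 of 8 pairs, and 1 of 16 sheep correlated best with its own number. With the replicate block, 64 members passed, and the negative coefficients for testis weight numbered 48 in place of 78.

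Median mutual r was 0.69 without TMM factors, 0.57 as Spearman's rho and 0.52 to 0.61 over sheep left out. Of 897 log2 fold changes of named members under alternatives, 29 moved by more than the spread used for comparison (1 SE), 24 of them with the testis weight covariate, and 0 reversed. At 8 sheep per diet no correlation passed adjustment over all genes tested, which says nothing of its absence.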

Other observations

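If 2 mRNAs each correlate with the same miRNA below -0.9 over the same points, their own correlation cannot be under 0.62. Of the 887 pairs of members listed for the same miRNA, 119 (13.4%) had a lower r in CPM over the 16 sheep, down to -0.07, and 150 (16.9%) on the log2 scale. Of these 119 pairs, counted once for each miRNA they share, 63 belonged to oar-miR-409-3p and 21 to oar-miR-380-3p, and 0 to oar-miR-410-3p. The miRNA values behind the listing were not analysed here, and why these pairs fall under the bound was not tested.

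A group of 19 members was also listed for oar-miR-494-3p, oar-miR-758-3p, oar-miR-369-5p or oar-miR-487b-3p, whose genes lie between the same ends of the cluster. All 19 passed both criteria, with a median log2 fold change of 0.91, where 10.8% of all genes tested were called higher. Of them 7 did not overlap between the diets in CPM, against 0.762% of all genes tested. The diet contrast chose the members, and nothing is read from these counts.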
